A study of Mus musculus with 10 samples.

Results

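The genes described here encode the machinery that licenses origins of DNA replication and copies DNA at the fork. The set of 42 genes was chosen by known function: the MCM2-7 helicase, the origin recognition complex, the licensing factors, the factors that fire origins, the sliding clamp and its loader, the replicative polymerases and primase, Okazaki fragment processing, replication protein A (RPA) and the E-type cyclins. All 42 were among the 20813 genes of the deposited table, and all 42 passed the filter on low values (a mean of at least 10 over the samples). The genes were listed by symbol and not by a measured value, although the set was chosen with earlier results of these data known.

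The RNA came from spleens of C57BL/6 mice infiltrated by transplanted T-ALL (T-cell acute lymphoblastic leukemia), in which T-cell precursors grow as a fast cancer of the blood. The leukemia carried a conditional Sirt1 knockout in both groups, and the recipients of both groups had been irradiated at a sub-lethal dose, which leaves host blood cells in place. Recipients of the 5 samples with the genotype label Sirt1 deleted (replicates 7, 8, 10, 11 and 12) were given tamoxifen, 3 mg per mouse in corn oil by intraperitoneal injection, and those of the 5 control samples (replicates 2 to 6) corn oil alone. Tamoxifen and the genotype label divide the samples identically, so their effects cannot be told apart. The Cre driver, the deleted exons, the age of the mice and the time after injection are not given in the sources used here, nor is whether the samples trace back to 1 primary leukemia, so p-values measure the spread between these samples.

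Before a cell can copy its genome, the origin recognition complex marks origins on the DNA, and Cdc6 and Cdt1 load the ring-shaped MCM2-7 helicase there in an inactive form, a step called licensing. On entry to S phase the kinases Cdc7-Dbf4 and cyclin E-Cdk2 help convert the loaded rings into active helicases bound to Cdc45 and the GINS complex, while geminin holds Cdt1 so that no origin is licensed again. At the fork, RPA coats the single strand, polymerase alpha with primase lays down primers, the RFC loader places the PCNA clamp, polymerases epsilon and delta extend the strands, and Fen1 and Lig1 trim and seal Okazaki fragments. Leukemic T-cell precursors divide fast and express these genes at high levels, many of them under control of E2F transcription factors, which the retinoblastoma proteins restrain.

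Each sample held 33.7 M to 34.5 M normalized counts in all (M, mega). Sirt1 itself, the NAD-dependent deacetylase gene that the label names, measured 1873 ± 146 normalized counts in the samples labelled deleted and 1810 ± 62.5 in controls (SD, n = 5 each), with ranges of 1715 to 2097 and 1735 to 1909 (exact two-sided permutation p = 0.405). The groups were thus not separated by its gene-level value, and the first group is called labelled Sirt1-deleted throughout. All 12 T lineage markers were detected, and their summed count was 179575 to 195268 in the labelled Sirt1-deleted samples against 198535 to 207983 in controls (ratio 0.931). Of these 12 markers, 4 were called lower and 2 higher, and their median log2 difference was -0.03. The sum was weighted by Tcf7, the marker with the most counts, at 58426 ± 5636 against 77942 ± 2611. The lower sum therefore does not stand for the list as a whole. The summed count of 14 neutrophil markers was 28980 to 101046 against 9136 to 12635 (ratio 5.42), with 13 of 14 called higher. Macrophage markers summed to 6720 to 11793 against 3279 to 3740 (ratio 2.34), with 9 of 12 called higher. Each of these 3 sums gave an exact two-sided permutation p of 0.00794, the smallest that 5 samples against 5 allow. Of the markers listed, Ahsp (erythroid) and Ncr1 (NK cell) were absent from the deposited table, which held no gene at 0 in all samples. For the summed erythroid, B cell, NK cell, and stromal and endothelial markers the exact permutation p was 0.968, 0.167, 0.230 and 0.413. The NK cell sum was almost all Gzma (14982 ± 1944 against 13290 ± 2128). That of stromal and endothelial markers was mostly Pecam1 (3192 ± 497 against 3252 ± 70.8). The last 2 p-values thus describe chiefly these 2 genes. The part of host cells of these types in the results on replication genes was not tested. In bulk RNA, fewer cells of a type and less RNA per cell cannot be told apart. Labelled Sirt1-deleted replicates 10 and 11 lay closer to the controls than replicates 7, 8 and 12 did in the genes called lower, and counts are given with and without them.

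The replication genes did not move together. Of the 42 genes, 16 were lower in the labelled Sirt1-deleted samples, 6 were higher and 20 did not pass the test (limma on log2(normalized count + 1), Benjamini-Hochberg adjusted p under 0.05 over 15276 genes, here written as called). The changes were small, with log2 differences between -0.52 for Pola1, the catalytic subunit of polymerase alpha, and 0.42 for Mcm3, a subunit of the helicase. Lower genes included 4 of the 6 MCM helicase genes and both primase genes, and higher genes included Gmnn, which encodes geminin, and Pold1, which encodes the catalytic subunit of polymerase delta. Over all tested genes 36.1% were called, 19.4% as lower and 16.8% as higher. The members' shares were 52.4%, 38.1% and 14.3%. With the deposited scaling the share called lower was thus above the background and the share called higher near it, but the former was not above it after T lineage rescaling (9.52% of the members, 11.3% of all tested genes). The background also depended on the filter. With a minimum mean of 50, which all 42 genes passed, it was 43.6% called, 25.5% as lower and 18.1% as higher. The members' shares were unchanged there, so their excess over the background was smaller. The median log2 difference of the 42 genes was -0.07, against -0.00014 over all tested genes. Across the fits without 1 sample the members' median ran from -0.112 (without labelled Sirt1-deleted replicate 11) to -0.0486 (without control replicate 6).

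**Figure D1:**
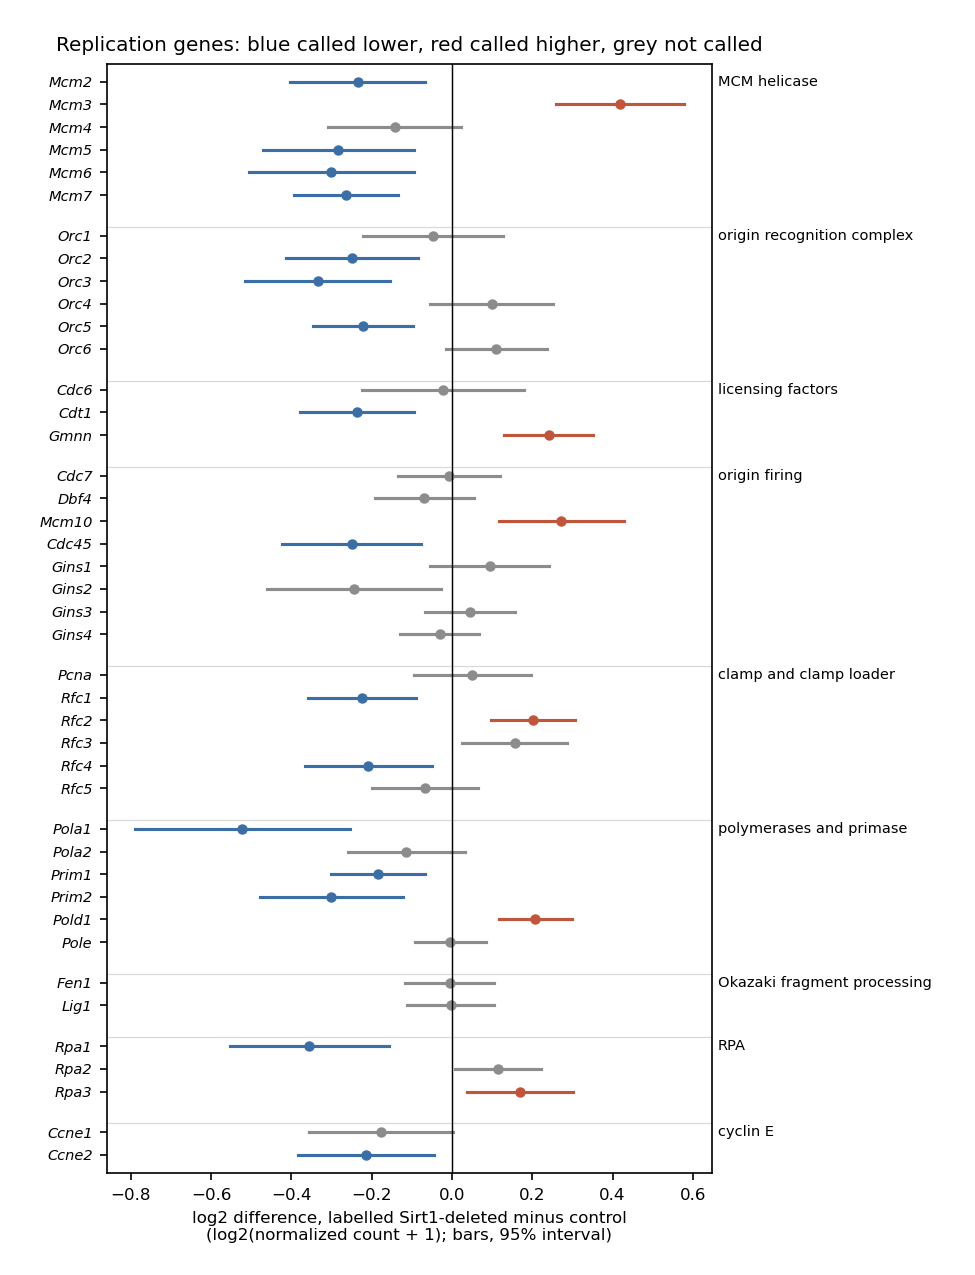
Log2 difference between labelled Sirt1-deleted and control samples (5 each) for the 42 replication genes, grouped by role, on the log2(normalized count + 1) scale. Points are limma estimates and bars 95% intervals, with the 16 genes called lower in blue, the 6 called higher in red and the 20 not called in grey.

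The balance of the directions depended on how the samples were scaled. Against 16 lower and 6 higher with the deposited scaling (27.3% of the called genes higher), there were 11 lower and 9 higher after upper-quartile rescaling (45% higher), 13 lower and 9 higher after quantile normalization (40.9% higher), and 4 lower and 10 higher when samples were rescaled to the same mean log2 level of the T lineage markers, some of which were themselves called lower (71.4% higher). The calls over all tested genes moved with them. After upper-quartile rescaling 14.9% of all tested genes were lower and 20.7% higher (members 26.2% and 21.4%), and after quantile normalization 17.96% and 16.2% (members 31.0% and 21.4%). After T lineage rescaling 23.3% of all tested genes were higher, and 23.8% of the members, so that both shares of the members were near the background. In that last scaling the 4 lower members were Mcm7, Orc3, Pola1 and Rpa1. The median of all tested genes was 0.06, -0.03 and 0.09 under the 3 rescalings, against -0.0096, -0.02 and 0.02 for the members. The sign of no called gene turned under any of the 3 rescalings. For upper-quartile and T lineage rescaling it could not have, since each shifts all genes by nearly the same amount. That shift (median over all tested genes 0.06 and 0.09) was smaller than the smallest called difference, 0.17 for Rpa3. In the 10 alternatives that kept all samples and the 10 fits without 1 sample, and also without replicates 10 and 11, 7 genes were called each time: Mcm7, Orc3 and Rpa1 as lower, and Mcm3, Gmnn, Rfc2 and Pold1 as higher. Their genes lie in GENCODE M21 (GRCm38) as follows: Mcm7 at chr5:138164583-138172422, Orc3 at chr4:34570796-34614944, Rpa1 at chr11:75298166-75348324, Mcm3 at chr1:20802968-20820312, Gmnn at chr13:24751845-24761923, Rfc2 at chr5:134581366-134601805 and Pold1 at chr7:44532746-44548849, Rfc2 on the plus strand and the rest on the minus strand. For 11 of the 42 genes the groups had no overlap. These were Mcm7, Orc3, Orc5, Cdt1, Prim1, Prim2 and Rpa1 among the lower genes (7 genes, where 12.9% of all tested genes had this pattern) and the 4 higher genes just named (11.1% of all tested genes).

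**Figure D2:**
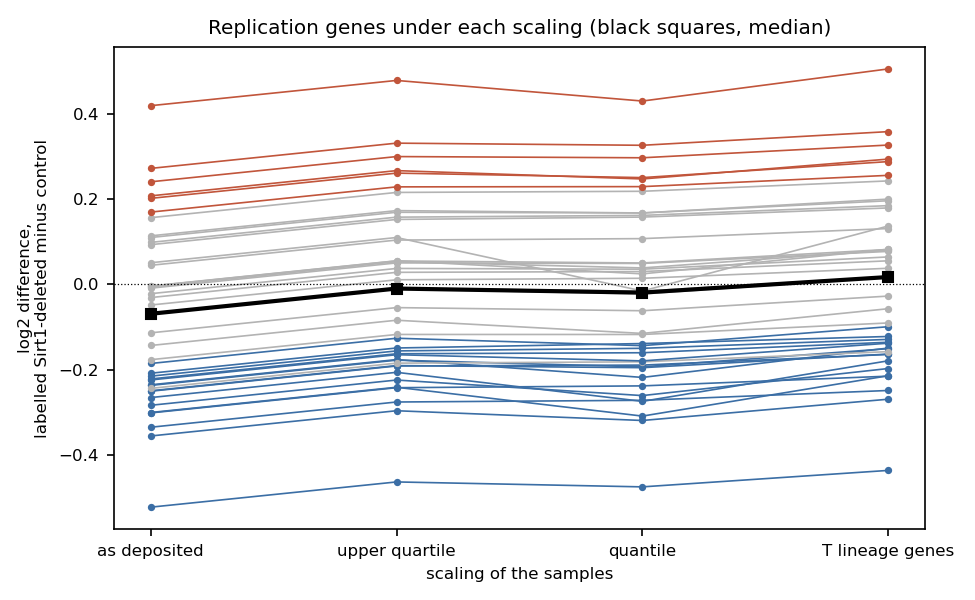
Log2 difference of each of the 42 replication genes under 4 scalings of the samples, with colors for the call under the deposited scaling (blue lower, red higher, grey not called) and black squares for the median of the genes. The median moves from -0.07 as deposited to -0.0096 and -0.02 and to 0.02 with T lineage rescaling. Blue lines stay below 0 and red lines above it, which the near-uniform shifts of upper-quartile and T lineage rescaling were too small to change.

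The sequences upstream of the start sites are shown first for the genes at the extremes of the set: the 3 called genes with the largest fall and the 2 with the largest rise that have an entry among the RefSeq promoters (GRCm38.p6). Each line gives the 250 bases before the start, 5′ to 3′ along the gene's strand, which is the minus strand in all 5. Capitals mark E2F-type motifs and CCAAT boxes. The windows are chrX:93632156-93632405 for Pola1, chr11:75348384-75348633 for Rpa1, chr4:34614943-34615192 for Orc3, chr1:20820313-20820562 for Mcm3 and chr2:5012792-5013041 for Mcm10.
Pola1: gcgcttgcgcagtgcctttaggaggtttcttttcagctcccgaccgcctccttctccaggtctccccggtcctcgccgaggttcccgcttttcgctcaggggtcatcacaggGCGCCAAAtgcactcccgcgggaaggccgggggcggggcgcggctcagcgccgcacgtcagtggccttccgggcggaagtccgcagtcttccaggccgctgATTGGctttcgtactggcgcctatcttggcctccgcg
Rpa1: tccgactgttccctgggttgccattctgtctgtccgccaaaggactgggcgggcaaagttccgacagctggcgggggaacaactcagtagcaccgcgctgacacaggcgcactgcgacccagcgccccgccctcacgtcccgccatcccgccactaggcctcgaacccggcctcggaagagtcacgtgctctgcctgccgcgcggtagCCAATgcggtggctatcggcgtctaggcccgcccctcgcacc
Orc3: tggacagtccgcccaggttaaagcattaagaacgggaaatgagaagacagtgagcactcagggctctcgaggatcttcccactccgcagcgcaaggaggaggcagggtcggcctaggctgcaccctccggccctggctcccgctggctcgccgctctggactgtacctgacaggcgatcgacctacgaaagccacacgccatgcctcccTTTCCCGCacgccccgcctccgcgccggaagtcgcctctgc
Mcm3: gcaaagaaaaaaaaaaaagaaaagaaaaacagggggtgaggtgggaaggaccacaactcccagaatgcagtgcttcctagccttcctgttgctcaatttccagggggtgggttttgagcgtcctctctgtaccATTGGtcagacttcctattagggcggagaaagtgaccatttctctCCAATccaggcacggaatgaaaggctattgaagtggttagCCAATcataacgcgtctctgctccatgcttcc
Mcm10: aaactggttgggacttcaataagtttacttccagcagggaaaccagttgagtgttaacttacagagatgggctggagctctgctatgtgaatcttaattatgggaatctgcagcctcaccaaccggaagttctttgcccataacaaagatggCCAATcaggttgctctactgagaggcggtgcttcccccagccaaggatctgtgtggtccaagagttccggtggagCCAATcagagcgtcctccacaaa

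Pola1 and Orc3 each hold an E2F-type motif in these 250 bases, and Rpa1, Mcm3 and Mcm10 hold none. Mcm3 does have E2F-type motifs after the start, which are described below. CCAAT boxes number 3 in Mcm3, 2 in Mcm10 and 1 each in the lower genes Pola1 and Rpa1, with none in Orc3. The motif searched for E2F was any of TTTCCCGC, TTTCGCGC, TTTGCCGC and TTTGGCGC, and for the CCAAT box CCAAT, on both strands of the window from 250 bases before to 50 bases after the start. Of the 42 genes, 33 had an entry, with 41 windows between them. An E2F-type motif was found in 13 of those windows (31.7%), each of a different gene, against 2.26% of the 32851 windows of all genes. It stood in 6 of 14 genes called lower, in 2 of 4 called higher and in 5 of 15 not called, so it was present in all 3 classes. CCAAT was found in 53.7% of the members' windows and 37.4% of all windows, in 10 of the lower genes, 3 of the higher and 7 of those not called.

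For each called gene with an E2F-type motif, 1 motif is shown with up to 10 bases on each side, motif in capitals, to set lower and higher genes beside each other. The 5 genes not called that hold one (Cdc6, Gins3, Lig1, Orc1 and Rfc3) are not shown. Mcm5 (chr8:75109346-75109373), Mcm6 (chr1:128359798-128359825), Mcm7 (chr5:138172031-138172058), Orc3 (chr4:34614966-34614993), Cdt1 (chr8:122568037-122568064) and Pola1 (chrX:93632276-93632303) were lower. Mcm3 (chr1:20820276-20820303) and Pold1 (chr7:44548766-44548786) were higher.
Mcm5: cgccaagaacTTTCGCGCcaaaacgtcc
Mcm6: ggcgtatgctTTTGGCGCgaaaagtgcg
Mcm7: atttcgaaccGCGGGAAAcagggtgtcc
Orc3: catgcctcccTTTCCCGCacgccccgcc
Cdt1: gaactaccttTTTGGCGCcatggcgcaa
Pola1: tcatcacaggGCGCCAAAtgcactcccg
Mcm3: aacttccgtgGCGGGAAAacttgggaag
Pold1: gtatcttgtgGCGGGAAAagc

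In Mcm5 and Mcm6 the forward motif overlaps another of the 4 forms on the opposite strand. The motif of Mcm7 shown lies 165 bases before the start, and a further one lies 17 bases after it. The motifs shown lie after the start in Mcm3 and Pold1, at 20 and 40 bases, and also in Cdt1, a lower gene, at 33 bases. Mcm3 has a further motif 39 bases after the start, and Mcm6 has one 47 bases before it. A match of letters is a description of the window and does not show that a factor binds there.

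The MCM helicase genes split. The products of Mcm2 to Mcm7 form a single ring with one copy of each, and 4 of the 6 genes fell, Mcm3 rose and Mcm4 did not pass the test. The values that follow are normalized counts in labelled Sirt1-deleted replicates 7, 8, 10, 11 and 12, in this order, and then in control replicates 2 to 6, and means carry the SD with n = 5. Mcm7 measured 14342, 15018, 16766, 16508 and 14250, against 19820, 17543, 17208, 19100 and 18648 in controls. All labelled Sirt1-deleted values lay below all controls, and Mcm7 fell by 0.27 on the log2 scale (SE 0.06, limma adjusted p = 0.00549), from 18464 ± 1084 to 15377 ± 1192. The use of strand in the counting is not given in the sources used here, so reads of a gene cannot be told apart from those of a gene that overlaps it on the opposite strand. Among the called members this limit touches Mcm7 (with Cops6 and Ap4m1), Orc2 (Nif3l1), Cdc45 (Ufd1), Rfc2 (Lat2), Rfc4 (Eif4a2), Ccne2 (Ints8), and Pola1, Prim2 and Pold1 (gene models named by number). Genes that overlap on the same strand cannot be told apart by strand at all. Beside the loci marked as overlapping below, this touches Rpa1 (Gm47300), Cdt1 (Gm20388), Mcm7 (Mir25, Mir93, Mir106b), Orc2 (Gm23966), Pola1 (Gm23557) and Pold1 (Mir7053).

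Mcm6 measured 16609, 17685, 20801, 20544 and 14062, against 23161, 20743, 20362, 22577 and 22636. Replicates 7, 8 and 12 were below every control, and replicates 10 and 11 lay among the lowest controls (log2 difference -0.30, SE 0.09, limma adjusted p = 0.0259). For Mcm5 the counts were 11126, 11869, 14113, 14014 and 10083, against 15806, 13988, 13886, 15258 and 15014. The same 3 replicates were below the controls, and replicates 10 and 11 were within them (log2 difference -0.28, SE 0.09, limma adjusted p = 0.0236). Mcm2, whose product forms the gate of the ring together with that of Mcm5, measured 12484, 12959, 15577, 15233 and 11698, against 16847, 15118, 14922, 16523 and 16174. It showed the same order of samples (log2 difference -0.24, SE 0.08, limma adjusted p = 0.0319). Mcm4 was 10454 ± 1262 against 11498 ± 736 (log2 difference -0.14, 95% interval -0.31 to 0.02, limma adjusted p = 0.163). The calls of these 3 lower genes rested on single samples. The call of Mcm5 was lost without labelled Sirt1-deleted replicate 7 or without control replicate 2 or 5 (highest limma adjusted p 0.0599). That of Mcm6 was lost without the same samples or without control replicate 6 (highest 0.0625), and that of Mcm2 in 6 of the 10 fits without 1 sample (replicates 7, 8 and 12 and control replicates 2, 5 and 6, highest 0.0788).

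Mcm3 went the other way. It measured 16378, 15821, 15529, 16505 and 20166 in the labelled Sirt1-deleted samples, against 11479, 11939, 12846, 12835 and 13850 in controls. No labelled Sirt1-deleted sample was as low as any control, and replicate 12 stood above the rest. Mcm3 rose 1.34-fold in means, to 16880 ± 1880 over 12590 ± 918 in controls (log2 difference 0.42, SE 0.07, 95% interval 0.26 to 0.58, limma adjusted p = 0.00168). Without replicate 12 the log2 difference was 0.35. The ratio of Mcm3 to the geometric mean of the other 5 MCM helicase genes does not depend on the scaling of the samples. It was 1.30, 1.20, 0.996, 1.08 and 1.72 in the labelled Sirt1-deleted samples and 0.672, 0.781, 0.854, 0.766 and 0.838 in controls. The lowest labelled Sirt1-deleted ratio, in replicate 10, was above the highest control. This ratio and those below were chosen after the values were seen and carry no test. Per kilobase of the longest coding transcript (GENCODE M21), the level in controls ran from 3204 normalized counts for Mcm4 through 4154 for Mcm3 to 6233 for Mcm7. In the labelled Sirt1-deleted samples Mcm3 stood at 5569 ± 620 per kilobase and Mcm7 at 5191 ± 402, which is the reverse of their order in controls, though here these 2 levels were within their spread.

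**Figure D3:**
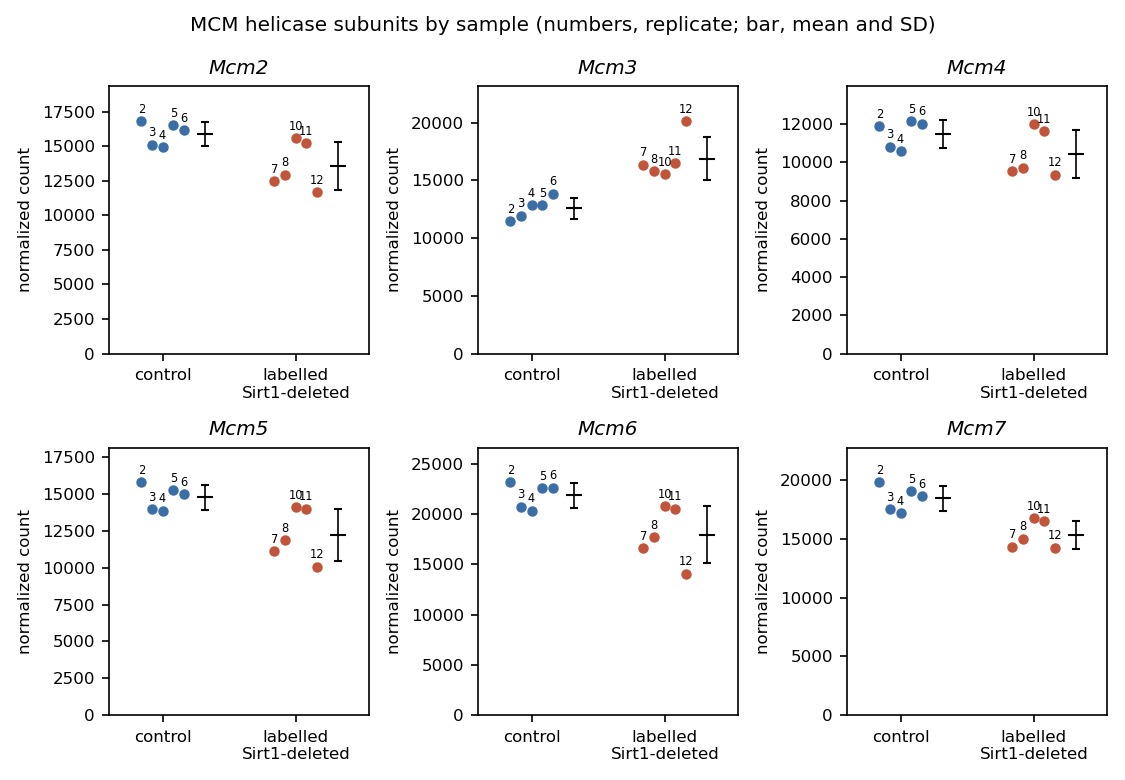
Normalized counts of the 6 MCM helicase genes in each sample, numbered by replicate, with the mean and SD of each group (n = 5). Mcm3 is higher in all labelled Sirt1-deleted samples than in any control, Mcm7 is lower in all, and in Mcm2, Mcm4, Mcm5 and Mcm6 replicates 10 and 11 overlap the controls while 7, 8 and 12 lie below them.

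In the origin recognition complex, which binds origins and recruits the loading factors, 3 of 6 genes fell and the other 3 did not pass. Orc3 measured 2099, 2188, 2564, 2326 and 1756, against 2866, 2665, 2721, 2787 and 2654. Every labelled Sirt1-deleted value lay below the lowest control, with replicate 10 nearest to it, and Orc3 fell by 0.33 on the log2 scale (SE 0.08, 95% interval -0.51 to -0.16, limma adjusted p = 0.00865). Orc5 fell from 1529 ± 67.7 to 1312 ± 79.3, again without overlap (limma adjusted p = 0.0106), but the annotation marks its locus as overlapping another gene and its value is uncertain to that extent. Orc2 fell from 3161 ± 211 to 2668 ± 306 (limma adjusted p = 0.0232), a call lost without labelled Sirt1-deleted replicate 7, 8 or 12 or control replicate 2 (highest adjusted p 0.0615). Orc1, the subunit whose level is known to follow the cell cycle, had a log2 difference of -0.05 (95% interval -0.22 to 0.13). For Orc4 the difference was 0.10 (limma adjusted p = 0.293) and for Orc6 0.11 (limma adjusted p = 0.155), both positive and called as higher after T lineage rescaling. Per kilobase, controls ranged from 428 normalized counts for Orc1 to 2003 for Orc6.

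Among the licensing factors, Cdt1 and its inhibitor changed in opposite directions and Cdc6 did not pass the test. Cdt1, which brings the helicase to the origin, measured 4330, 4507, 5200, 5077 and 4089, against 5708, 5267, 5296, 5470 and 5498. The groups did not overlap, although replicate 10 came close to the lowest control, and Cdt1 fell by 0.24 on the log2 scale (SE 0.07, limma adjusted p = 0.0145). Gmnn, which encodes the inhibitor geminin, measured 3436, 3633, 3927, 3909 and 3707, against 3027, 3067, 3070, 3345 and 3232. It rose 1.18-fold in means without overlap (log2 difference 0.24, SE 0.05, limma adjusted p = 0.00411), and here replicates 10 and 11 were the highest. The ratio of Gmnn to Cdt1 within a sample was 0.755 to 0.907 in the labelled Sirt1-deleted samples and 0.530 to 0.611 in controls. Cdc6, the ATPase that joins the origin recognition complex before loading, measured 3459, 3176, 4053, 4482 and 3351, against 3655, 3831, 3239, 3976 and 3998. These groups overlapped over most of their range (log2 difference -0.02, 95% interval -0.22 to 0.18, limma adjusted p = 0.881).

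Of the 8 genes for origin firing, 1 fell, 1 rose and 6 did not pass. Cdc45, the helicase's partner in its active form, measured 2448, 2602, 2961, 3197 and 2394, against 3072, 3142, 3056, 3415 and 3414. Replicate 11 lay among the controls and the other 4 samples below them (log2 difference -0.25, SE 0.08, limma adjusted p = 0.0269). This call was lost in 5 of the 10 fits without 1 sample, those without labelled Sirt1-deleted replicates 7, 8 or 12 or control replicates 5 or 6 (highest adjusted p 0.0689). Mcm10, which activates the assembled helicase and is no part of the ring, measured 4304, 4174, 4809, 4683 and 5198, against 3553, 3509, 3756, 4229 and 4133. Replicate 8 was below the highest control, and Mcm10 rose by 0.27 on the log2 scale (SE 0.07, limma adjusted p = 0.0119), to 4634 ± 410 over 3836 ± 330 in controls. The kinase gene Cdc7 had a log2 difference of -0.01 and its activator Dbf4 one of -0.07. The 4 GINS genes did not share a direction. Gins2 stood at -0.24 (95% interval -0.46 to -0.03, limma adjusted p = 0.0745), with 2152 to 3217 normalized counts against 2770 to 3212 in controls, and it was called lower without labelled Sirt1-deleted replicate 10 or 11. Gins1, Gins3 and Gins4 lay between -0.03 and 0.09.

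The clamp gene and its loader also split. Pcna, the gene with the most normalized counts of the set, measured 27920, 27952, 31726, 33323 and 28093, against 26551, 28066, 27043, 31227 and 30873. The groups overlapped, and the log2 difference was 0.05 (95% interval -0.09 to 0.20, limma adjusted p = 0.582). The pseudogene Pcna-ps2 is also in the table, so reads may be divided between the copies. Among the 5 loader genes, Rfc2, a small subunit, measured 4533, 4188, 4524, 4619 and 4778, against 3696, 4045, 3861, 4040 and 4036. All labelled Sirt1-deleted samples were above all controls, and Rfc2 rose by 0.20 on the log2 scale (SE 0.05, limma adjusted p = 0.00705). Rfc1, the large subunit that opens the clamp, fell from 5650 ± 293 to 4846 ± 424 (limma adjusted p = 0.0149), and its locus is marked as overlapping another gene. Rfc4 fell from 2665 ± 67.9 to 2319 ± 277 (limma adjusted p = 0.0421), a call that was lost in 8 of the 10 fits without 1 sample and kept in those without labelled Sirt1-deleted replicate 10 or 11. Rfc3 had a log2 difference of 0.16 (limma adjusted p = 0.0591) and Rfc5 one of -0.07 (limma adjusted p = 0.407). The ratio of Rfc2 to Rfc1 was 0.837 to 1.07 in the labelled Sirt1-deleted samples and 0.642 to 0.745 in controls.

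Primer synthesis and strand extension differed in direction. Pola1, the catalytic subunit of polymerase alpha, measured 2819, 3076, 4050, 3728 and 2374, against 4906, 4302, 3997, 4787 and 4707. Replicate 10 lay just above the lowest control and replicate 12 farthest below. The mean was 3209 ± 679 against 4540 ± 379 in controls. Pola1 fell by 0.52 on the log2 scale, a fold of 0.696 on that scale (SE 0.12, 95% interval -0.79 to -0.25, limma adjusted p = 0.00702). Both primase genes fell without overlap. Prim2, the large subunit, measured 1856, 1941, 2299, 2309 and 1694, against 2591, 2388, 2370, 2517 and 2495 (log2 difference -0.30, SE 0.08, limma adjusted p = 0.0136), and its locus is marked as overlapping another gene. Replicates 10 and 11 were again closest to the controls. Prim1, the catalytic subunit, fell from 5176 ± 141 to 4561 ± 346 (log2 difference -0.19, limma adjusted p = 0.0187). Pola2, the accessory subunit of polymerase alpha, had a difference of -0.11 (limma adjusted p = 0.207).

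Pold1, the catalytic subunit of polymerase delta, measured 7275, 7236, 7118, 6963 and 7538, against 6068, 6100, 6069, 6454 and 6597. Its coefficient of variation in the labelled Sirt1-deleted samples was 2.94%, and every value was above every control, and it rose by 0.21 on the log2 scale (SE 0.04, limma adjusted p = 0.00336). Pole, the catalytic subunit of polymerase epsilon, did not pass, with 3818 ± 74.6 against 3830 ± 122 (log2 difference -0.0041, 95% interval -0.09 to 0.08). The ratio of Pola1 to Pold1 was 0.387, 0.425, 0.569, 0.535 and 0.315 in the labelled Sirt1-deleted samples and 0.659 to 0.809 in controls. For Okazaki fragment processing, the flap nuclease gene Fen1 had a log2 difference of -0.0057 (95% interval -0.12 to 0.11) and the ligase gene Lig1 one of -0.0037 (95% interval -0.11 to 0.10). Neither passed the test.

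The 3 subunits of RPA, which protects single-stranded DNA as a complex with one copy of each, did not move alike. Rpa1, the large subunit, measured 8562, 8897, 10777, 10408 and 7414, against 12945, 10920, 11191, 11944 and 11491. All labelled Sirt1-deleted samples were below all controls, replicate 10 by the smallest margin, and Rpa1 fell by 0.36 on the log2 scale (SE 0.09, limma adjusted p = 0.0104). Rpa3, the small subunit, rose by 0.17 on the log2 scale (limma adjusted p = 0.0442), to 2115 ± 111 over 1882 ± 135 in controls, a call lost in 7 of the 10 fits without 1 sample and kept without labelled Sirt1-deleted replicate 8 or control replicate 5 or 6. Rpa2 had a difference of 0.11 (95% interval 0.0073 to 0.22, limma adjusted p = 0.0881). The ratio of Rpa3 to Rpa1 was 0.202 to 0.292 against 0.132 to 0.177 in controls, and that of Rpa2 to Rpa1 0.386 to 0.544 against 0.280 to 0.343, with no overlap in either.

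**Figure D4:**
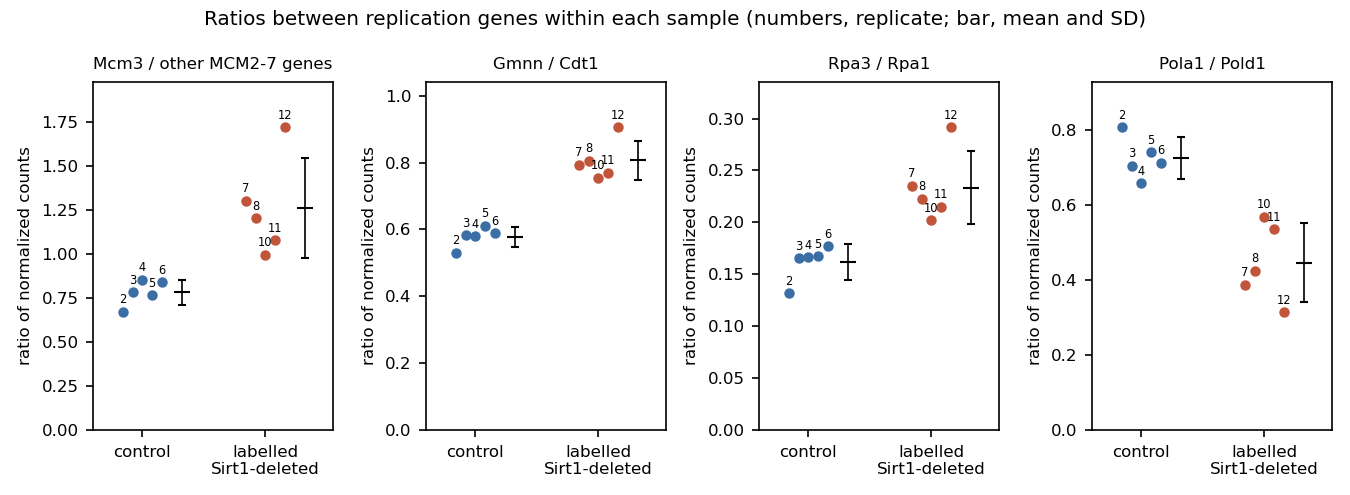
Ratios of normalized counts between replication genes within each sample, numbered by replicate, with the mean and SD of each group (n = 5). The ratios of Mcm3 to the other MCM helicase genes (1.26 ± 0.283 against 0.782 ± 0.0720), Gmnn to Cdt1 (0.806 ± 0.0595 against 0.578 ± 0.0296) and Rpa3 to Rpa1 are higher in every labelled Sirt1-deleted sample than in any control, and the ratio of Pola1 to Pold1 is lower in every one.

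The E-type cyclins, which activate Cdk2 at the entry to S phase, both had negative differences, and Ccne2 passed the test. Ccne2 measured 2140, 2166, 2697, 2457 and 2084, against 2667, 2652, 2379, 2735 and 2933. Replicates 10 and 11 lay within the controls (log2 difference -0.22, SE 0.08, limma adjusted p = 0.0474). This call was lost in 7 of the 10 fits without 1 sample and kept without labelled Sirt1-deleted replicate 10 or 11 or control replicate 4. Ccne1 measured 1707, 1602, 2068, 2242 and 1827, against 2087, 2197, 2046, 2199 and 2072. Replicates 7, 8 and 12 were below the controls and 11 was above them (log2 difference -0.18, 95% interval -0.36 to 0.0028, limma adjusted p = 0.113). The ratio of Ccne1 to Ccne2 overlapped between the groups, at 0.740 to 0.913 against 0.706 to 0.860.

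The fall was uneven between samples of the labelled Sirt1-deleted group. Among the 16 lower genes, replicates 7, 8 and 12 were below all controls in 16 of 16, whereas replicate 10 was below them in 10 and replicate 11 in 9. Replicates 10 and 11 were the 2 highest of their group in all 16 lower genes, where this held for 49.3% of all tested genes called lower. Over all 42 members they were so in 33, against 23.7% of all tested genes. In the 6 higher genes they were so in 2, where this held for 3.86% of all tested genes called higher. The median deviation of the 42 genes from the control mean on the log2 scale was -0.16, -0.17 and -0.15 in replicates 7, 8 and 12, and 0.02 and 0.01 in replicates 10 and 11. Control samples lay between -0.04 and 0.04, so replicates 10 and 11 were within the range of the controls in this median, which mixes falls and rises. In the 6 higher genes their medians were 0.260 and 0.272, above all controls (-0.0981 to 0.0944), against 0.187, 0.167 and 0.275 in replicates 7, 8 and 12. In the 16 lower genes they were -0.0864 and -0.0993, just below the controls (-0.0814 to 0.0758). These 2 sets were called from the same values. The summed neutrophil markers were also lowest in replicates 10 and 11 of this group, at 28980 and 39798 normalized counts, against 60466, 101046 and 45019 in replicates 7, 8 and 12. They were still above every control, and their part in the unevenness was not tested. Without replicates 10 and 11, left out because an earlier look at these data had placed them nearest the controls, 21 genes were called lower and 5 higher, and the median log2 difference was -0.165. Calls over all tested genes rose too in that fit, to 24.5% lower and 21.0% higher, where the members' shares were 50% and 11.9%. Of the 22 called genes, 21 were called there in the same direction and Rpa3 was not. The median coefficient of variation over the 42 genes was 8.79% in the labelled Sirt1-deleted group and 5.33% in controls. Over all tested genes it was also higher in that group, at 12.8% against 9.31%, so this difference was not particular to the replication genes.

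**Figure D5:**
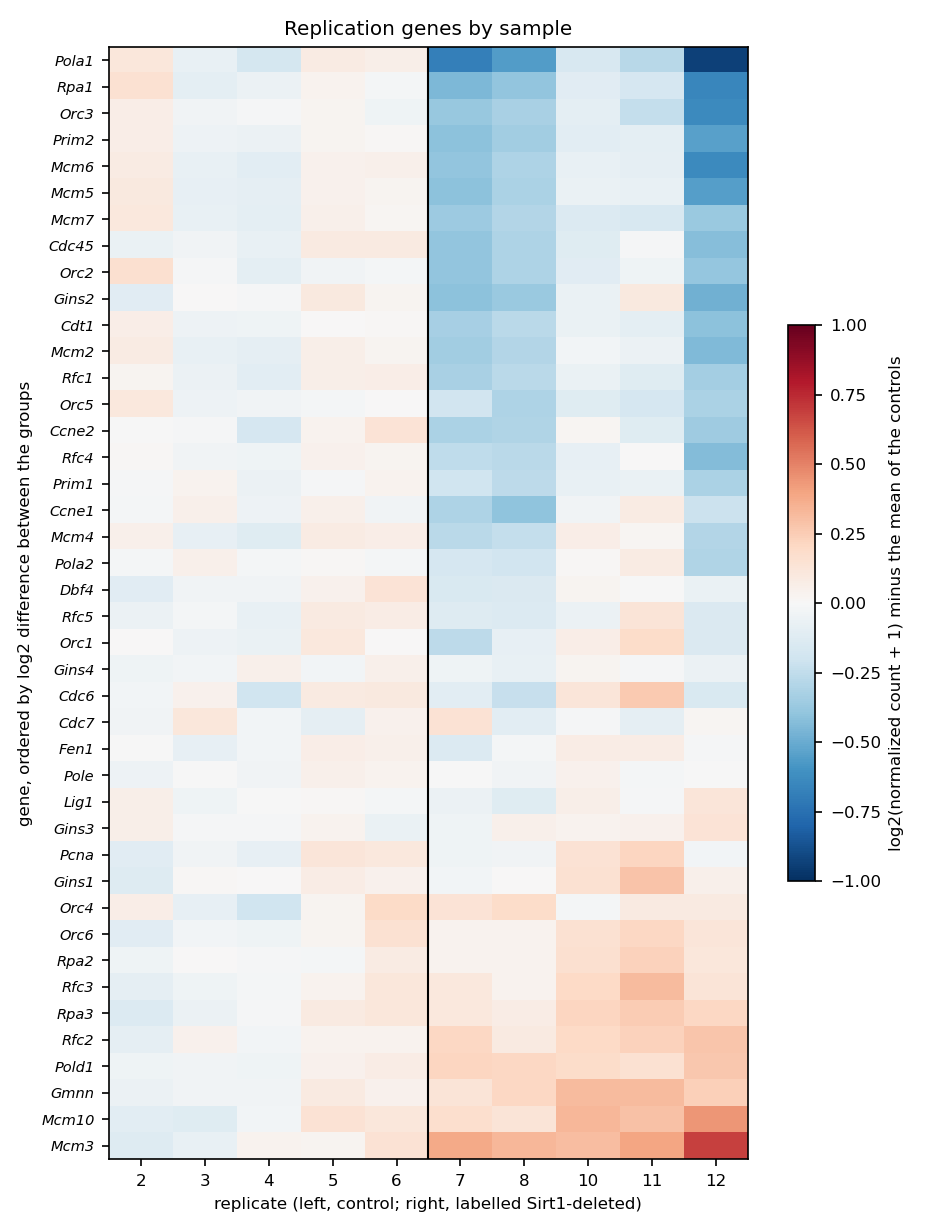
Deviation of each of the 42 replication genes from the mean of the controls, on the log2(normalized count + 1) scale, in control replicates (left) and labelled Sirt1-deleted replicates (right), with genes ordered by the difference between the groups. Blue (lower) is deepest in replicates 7, 8 and 12 and pale in 10 and 11, whose medians over the genes were 0.02 and 0.01, while the red (higher) rows at the bottom span all 5 replicates.

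Further genes of replication were called about as often as all tested genes. Of 33 further genes for replisome accessory factors, chromatin assembly and origin control, 6 were called lower and 4 higher (30.3% called, against 36.1% of all tested genes), with a median log2 difference of 0.00042. Ticrr, which helps load Cdc45 at origins, fell from 2278 ± 169 to 1781 ± 189 (log2 difference -0.36, limma adjusted p = 0.00425). Chaf1a, a subunit of the histone chaperone that follows the fork, had a difference of -0.29 (limma adjusted p = 0.0400), and Chtf8, of an alternative clamp loader, one of -0.27 (limma adjusted p = 0.00431). The largest rises were in Pole4, an accessory subunit of polymerase epsilon (0.23, limma adjusted p = 0.00745), the topoisomerase gene Top1 (0.22, limma adjusted p = 0.00663) and Rnaseh2c (0.21, limma adjusted p = 0.0197). The groups did not overlap for these 3.

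Of 25 regulators of the step from G1 to S phase, 8 were called lower and 3 higher (44% called, against 36.1% of all tested genes), with a median of -0.07. Their shares were 32% lower and 12% higher, against 19.4% and 16.8% of all tested genes. Tfdp2, a partner of E2F proteins, fell by 0.59 on the log2 scale (limma adjusted p = 0.00460), Rb1, the retinoblastoma gene, by 0.38 (limma adjusted p = 0.0411) and E2f6, a repressor of the E2F family, by 0.30 (limma adjusted p = 0.00462). Cdkn1a, which encodes the Cdk inhibitor p21, rose in all 5 samples to between 888 and 1542 normalized counts, from 242 to 335 in controls (log2 difference 1.88, limma adjusted p = 3.52e-05). Ccnd3, which encodes cyclin D3, rose by 0.54 (limma adjusted p = 0.000505) and the repressor E2f7 by 0.30 (limma adjusted p = 0.0464). In replicates 10 and 11 Cdkn1a stood at 992 and 1542, neither of them closer to the controls than replicate 7. E2f1, the classical activator, measured 2884 ± 127 against 2690 ± 69.9 and did not pass (log2 difference 0.10, limma adjusted p = 0.105).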

How the data were processed

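Per the labels' protocols, single cells of leukemic spleens were freed of red cells by lysis, total RNA was extracted and strand-specific Illumina libraries were made. The authors deposited 1 table of normalized counts per gene symbol, used here as a signal and not as raw counts. The submitters' processing notes name kallisto 0.44.0, DESeq and mm10, without their roles. Whole reads were not recovered (61.9% to 73.8% of low values lay within 0.1 of a whole multiple), so raw depth is unknown. Values were analysed as log2(value + 1) for 15276 genes with a mean of at least 10, with limma 3.58.1 in R 4.3.3 (trend, group as the sole term) and Benjamini-Hochberg adjustment over these genes at 0.05. The script was tested on simulated data. Because 1 is added before taking logs, fold changes of genes with low values are understated. List sums and Sirt1 were compared by exact two-sided permutation tests.

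The members and lists were chosen with earlier results of these data known. Values in every sample are given for the 8 called members with the largest fall, the 5 with the largest rise, and Mcm2, Cdc6, Cdt1, Pcna, Ccne1 and Ccne2. Of each further list the 3 called genes with the largest change in each direction are named. Positions and overlaps come from GENCODE M21 (GRCm38), which may not be the annotation used for counting. Alternatives were pseudocounts of 0.1 and 5, a minimum mean of 50 or no filter, 3 rescalings, an exact rank-sum test, sample weights in limma, limma with no trend, and the omission of single samples or of labelled Sirt1-deleted replicates 10 and 11.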

Additional observations from a re-analysis of the deposited data

Results flagged for a closer look

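Mcm3 in labelled Sirt1-deleted replicate 12 stood far from the rest of its group. It measured 20166 normalized counts, against 15529 to 16505 in the other 4 samples, and its gap to the nearest of them was 0.790 of the range of the group, above the critical value of 0.71 for 5 samples. This was 1 of 84 sets examined (42 genes in 2 groups), where chance at 1 in 20 gives 4.2. Mcm3 was called higher without this sample as well, with a log2 difference of 0.35.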

How the results depend on the processing

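Count models (edgeR, DESeq2) were planned but not run, because whole reads were not recovered. No paired analysis was possible because no replicate number occurs in both groups. The number of members called was 22. It was 14 after T lineage rescaling (4 lower, 10 higher), 15 without limma's trend (10 lower, 5 higher), 11 with the exact rank-sum test (7 lower, 4 higher), and 14 to 23 across the fits without 1 sample (9 to 18 lower, 5 to 7 higher). Among those fits it was lowest without labelled Sirt1-deleted replicate 7 (14 called, 9 lower), and without control replicate 2 or 5 there were 10 lower. The background moved too. After T lineage rescaling 33.3% of the members and 34.6% of all tested genes were called. These shares were 35.7% and 32.8% without limma's trend, and 26.2% and 24.0% with the rank-sum test. They were 33.3% and 29.1% without labelled Sirt1-deleted replicate 7, and 54.8% and 41.1% without replicate 10. The median log2 difference of members was 0.0174 after T lineage rescaling, -0.0096 after upper-quartile rescaling, and -0.165 without labelled Sirt1-deleted replicates 10 and 11. With the rank-sum test 3659 genes were called in all. The count of all genes called lower was 1968 with that test and 1734 after T lineage rescaling, and that of all genes called higher was 1691 and 3558. The genes called with the rank-sum test were those whose groups did not overlap, 1968 lower and 1691 higher. The 11 members it called are likewise those without overlap given above, so these are 1 result. The cause of the other shifts was not tested. Leaving out labelled Sirt1-deleted replicates 10 and 11 was chosen with an earlier analysis of these data known.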
